A study of Mus musculus with 14 samples.

Results

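The aminoacyl-tRNA synthetases described here are 36 genes of the 26683 symbols in the count table, taken by their older symbols. Of these, 20 encode enzymes or subunits of the cytosol and 16, whose symbols end in 2, enzymes of the mitochondrion. An aminoacyl-tRNA synthetase joins an amino acid to its tRNA, which the ribosome then reads. The cytosolic enzymes serve translation of nuclear-encoded messages, and the mitochondrial ones, also encoded in the nucleus, serve the few messages of the mitochondrial genome. Gars and Kars supply both compartments from the one gene, and Qars serves the cytosol while mitochondria make glutaminyl-tRNA by another route. In T cells, translation rises sharply on activation, and the genes of several cytosolic synthetases are known targets of the transcription factor ATF4.

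RNA was sequenced from splenic CD4 T cells of females aged 8 months. Controls were C57BL/6J (B6) mice. The TC mice, named B6.NZM-Sle1NZM2410/AegSle2NZM2410/AegSle3NZM2410/Aeg/LmoJ by the labels, are a lupus-prone congenic line on the B6 background that carries the Sle1, Sle2 and Sle3 intervals, which lie on chromosomes 1, 4 and 7. Follicular helper T cells (Tfh) were gated as CD4+CD44+CD162lo/-PD-1+ and naive T cells (Tn) as CD4+CD44-, from 4 B6 and 3 TC mice, which gave 14 libraries in 4 groups. The Tn libraries are named so by title and cell type although their source label names Tfh, and the protocol speaks of wild-type and knockout mice where the other labels name strains.

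Library totals ran from 15162309 to 20191558 counts. The labels and the markers matched: 7 of 7 Tfh markers were higher and 6 of 6 naive markers lower in Tfh than in Tn in both strains. The gates do not set regulatory from helper cells, and the summed level of 4 regulatory T markers was 1275 to 1574 CPM (counts per 1000000 counts of the library, TMM-scaled) in B6 Tfh, 1813 to 2342 in TC Tfh and at most 124 in Tn. Ctla4 (219 to 254 CPM in B6 Tfh, 434 to 733 in TC Tfh) and Ikzf2 (626 to 911, 1032 to 1140) were above in TC. Foxp3 (279 to 344, 258 to 393) and Il2ra (72.0 to 100, 45.3 to 86.2) overlapped between the strains, so the sum does not show more regulatory cells in TC Tfh. Summed B cell markers reached 107 to 117 CPM in B6 Tfh and 71.9 to 99.9 in TC Tfh, against at most 2.48 in Tn, and 6 cycling cell markers summed to 73.2 to 106 CPM in Tfh against 10.1 to 16.6 in Tn. Plasma cell, myeloid and erythroid markers summed to at most 19.2, 12.6 and 2.10 CPM in any library. The part of these cells in the differences below was not tested. In sorted bulk RNA, fewer cells of a kind and less RNA per cell cannot be told apart, and every level here is relative to the other RNA of its library.

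The start regions of these genes were searched for short motifs, as a description of what the windows hold. RefSeq windows on GRCm38.p6, from 250 bases before to 50 after the start, were matched to 13 cytosolic and 14 mitochondrial members. The letters TGATGNAA, the core of the element that ATF4 binds with a C/EBP partner, were searched on both strands, and stood in 5 of the 13 cytosolic windows (Aars, Gars, Iars, Tars and Yars) and in 0 of the 14 mitochondrial ones, against 4.51% of the windows of 27025 genes. GCATGCGC, the core of the site of nuclear respiratory factor 1, which acts on many nuclear genes for mitochondrial proteins, stood in 0 of 13 cytosolic and 3 of 14 mitochondrial windows (Rars2, Vars2 and Wars2), against 3.05% of all windows. The E-box CACGTG was found in 4 cytosolic and 1 mitochondrial window, against 8.09% of all. The ETS motif CCGGAAGT, the last of the 4 searched, was found in 2 cytosolic and 1 mitochondrial window, against 4.31% of all. The 4 stretches of 60 bases printed next show matches to TGATGNAA or GCATGCGC, in capitals, on the strand of the gene, each ending at or before the RefSeq start.
Gars, chr6:55037941-55038000, plus strand: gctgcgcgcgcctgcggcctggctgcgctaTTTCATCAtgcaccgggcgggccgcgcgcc
Tars, chr15:11399659-11399718, minus strand: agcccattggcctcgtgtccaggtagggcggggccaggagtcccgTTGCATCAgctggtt
Vars2, chr17:35667605-35667664, minus strand: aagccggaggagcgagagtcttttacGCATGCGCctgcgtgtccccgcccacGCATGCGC
Wars2, chr3:99141000-99141059, plus strand: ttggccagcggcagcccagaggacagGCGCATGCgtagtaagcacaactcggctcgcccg

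The match began 30 bases before the start in Gars and 15 in Tars, both on the strand opposite to the gene. Vars2 held its motif at 46 and again at 20 bases before the start. Such a match is a run of letters and not a measured binding site. Of the 5 cytosolic genes with TGATGNAA, Iars, Gars, Tars and Yars were lower in B6 Tfh than in Tn by log2 changes of -0.70 to -0.30. Aars was at 0.13, a call that ended without 1 library and a value that turned to -0.08 with length and GC offsets.

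All 36 members passed the filter on low counts, and the smallest count of a member in a library was 129 (Pars2). Levels compared between genes are CPM per kilobase of the longest consensus coding transcript. In B6 the median cytosolic member stood at 27.6 CPM per kb in Tfh and 35.5 in Tn, and in TC at 24.8 and 28.8. The median of the mitochondrial members other than Lars2 was 8.83 and 11.9 in B6 and 9.64 and 12.7 in TC. Per length, the median cytosolic level was above the median mitochondrial level in each group.

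Among the cytosolic members the highest per length were Dars (aspartyl) in B6 Tfh, at 67.6 ± 2.30 CPM per kb (SD, n = 4), Qars (glutaminyl) in both Tn groups, at 60.8 in B6 and 59.3 in TC, and Vars (valyl) in TC Tfh, at 61.2. In B6 Tn the next after Qars was Kars (lysyl) at 60.5, within the spread of the libraries. Cars (cysteinyl) was the lowest cytosolic member in every group, from 6.95 in B6 Tfh to 14.9 in TC Tn. Mars2, the mitochondrial methionyl enzyme, was the lowest of all in 3 groups, at 1.86 CPM per kb in B6 Tfh, on an annotated transcript of 11294 bases, and Pars2 (prolyl) was lowest in TC Tn at 3.59. After Lars2, Tars2 (threonyl) was the highest mitochondrial member in every group, at 26.1 to 46.7 CPM per kb.

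**Figure D1:**
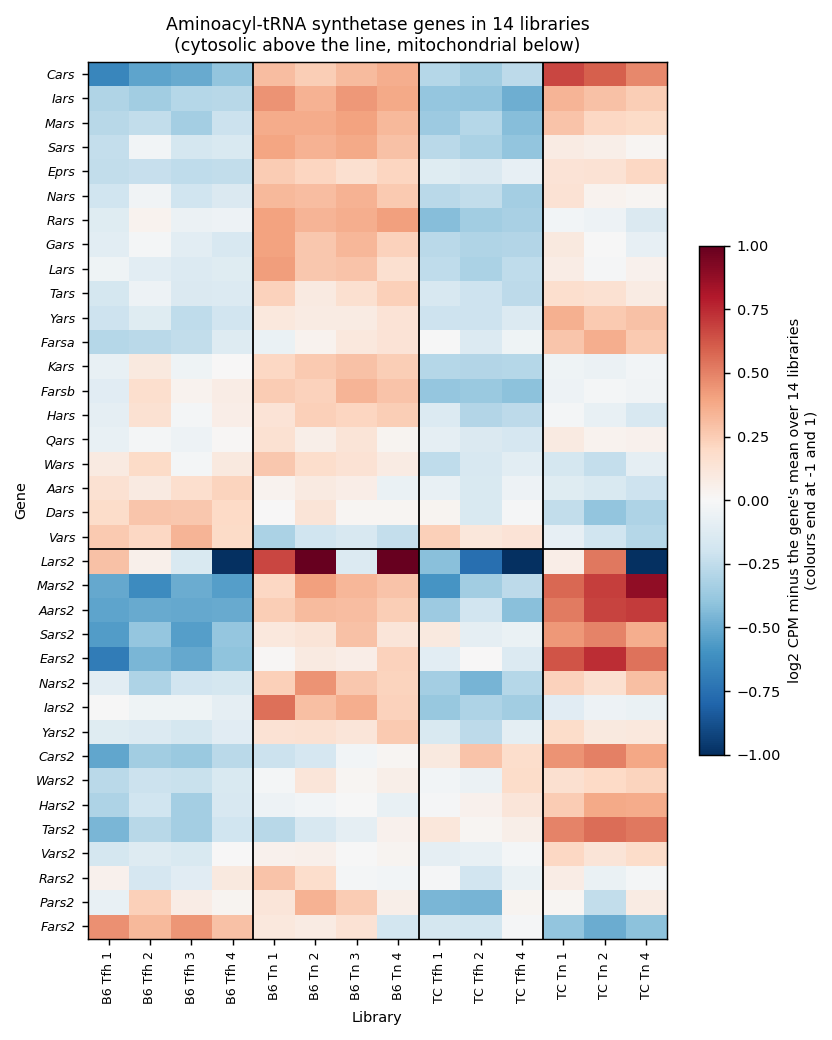
Level of each of 36 synthetase genes (rows) in each of 14 libraries (columns, grouped by strain and cell type), as log2 CPM minus the gene's mean over the libraries. Most cytosolic rows are red in B6 Tn and blue in TC Tfh, several mitochondrial rows (Tars2, Cars2, Ears2, Hars2) are reddest in TC Tn, and Lars2 changes colour between libraries of one group.

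Most synthetases were lower in Tfh than in Tn of the same strain. In B6, 29 of 36 members were lower and 4 higher (edgeR quasi-likelihood test, Benjamini-Hochberg adjusted p below 0.05 over 13427 genes), where 33.4% of all genes tested were lower and 37.1% higher. In TC, 26 were lower and 3 higher, against 32.4% and 33.8% of all genes. The ranges of the libraries were apart for 25 lower and 4 higher members in B6 (30.1% and 33.8% of all genes) and for 26 and 3 in TC (35.6% and 35.7%). The median log2 change of the cytosolic members was -0.30 in both strains, and that of the mitochondrial ones -0.29 in both, beside 0.02 and -0.01 over all genes tested. Every one of the 26 members lower in TC was also lower in B6, 15 of them cytosolic and 11 mitochondrial. With library totals in place of TMM factors the median of all genes moved to 0.15 in B6 and 0.10 in TC, and the compartment medians to between -0.19 and -0.16, so that 20 members were lower in B6 and 23 in TC and the change of Qars in B6 went from -0.13 to 0.01.

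**Figure D2:**
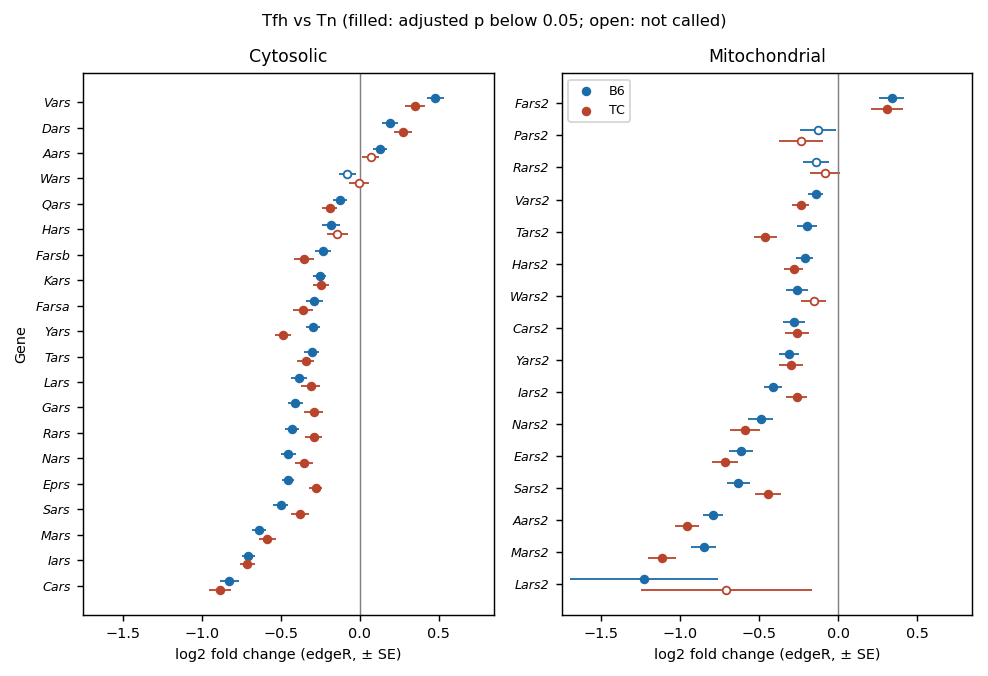
log2 fold change of Tfh against Tn, with its standard error, for the cytosolic (left) and mitochondrial (right) members in B6 (blue) and TC (red), filled where the adjusted p was below 0.05. All but Vars, Dars, Aars and Fars2 lie at or left of 0, with Wars near 0. The lowest values are Lars2 in B6 at -1.23 and Mars2 in TC at -1.12, and Lars2 has the widest error.

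Genes of both compartments were among those lower in Tfh. Cars stood at 20.4, 22.2, 22.6 and 24.4 CPM in the B6 Tfh libraries and at 39.7, 37.9, 40.0 and 41.3 in B6 Tn. In TC it was 26.3, 25.1 and 26.7 CPM in Tfh and 51.1, 48.7 and 44.7 in Tn. All Tfh libraries were below all Tn libraries of either strain, with log2 changes of -0.83 ± 0.061 (SE) in B6 and -0.88 ± 0.070 in TC (edgeR adjusted p 1.41e-09 and 4.80e-09). Iars, the isoleucyl enzyme, was 71.0, 68.9, 72.0 and 72.2 CPM in B6 Tfh and 119.3, 111.5, 118.4 and 113.8 in B6 Tn, a log2 change of -0.70 ± 0.042 (edgeR adjusted p 6.25e-11). In TC the Iars change was -0.71, and again no Tfh library reached a Tn library.

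Mars2 in B6 was 21.5, 19.8, 21.7 and 20.9 CPM in Tfh and 35.2, 40.6, 38.3 and 37.3 in Tn. Its TC libraries were at 20.3, 24.0 and 25.4 CPM in Tfh and 45.4, 49.3 and 56.4 in Tn, so the groups were apart in both strains. The log2 changes were -0.85 ± 0.079 in B6 and -1.12 ± 0.090 in TC. Its cytosolic counterpart Mars, which charges both initiator and elongator methionine tRNA, changed by -0.64 and -0.59. Mitochondrial Aars2 (alanyl) was 13.5, 13.7, 13.6 and 13.6 CPM in B6 Tfh and 23.0, 24.1, 24.1 and 23.0 in B6 Tn, a change of -0.79, and of -0.96 in TC. Ears2 (glutamyl, -0.62 and -0.72), Sars2 (seryl, -0.63 and -0.45), Nars2 (asparaginyl, -0.49 and -0.59) and cytosolic Sars (-0.50 and -0.38) were lower as well, in B6 and TC respectively.

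A few members went the other way. Vars, valyl-tRNA synthetase, was 270.7, 260.3, 285.3 and 257.6 CPM in B6 Tfh against 181.0, 196.8, 201.9 and 191.1 in B6 Tn. In TC it was 266.8, 244.5 and 248.4 CPM in Tfh against 213.6, 196.8 and 185.2 in Tn. Every Tfh library was above every Tn library of either strain, with log2 changes of 0.48 ± 0.054 in B6 and 0.35 ± 0.062 in TC (edgeR adjusted p 3.45e-07 and 8.49e-05). Dars was higher by 0.19 in B6 and 0.27 in TC, and its groups did not overlap in either strain. Fars2, the mitochondrial phenylalanyl enzyme, was higher by 0.34 and 0.31, but with transcript length and GC content as offsets these became 0.15 and 0.19 and were no longer called (adjusted p 0.122 and 0.113). Aars was higher in B6 only by its call, at 0.13 (adjusted p 0.0172), with 0.07 in TC (adjusted p 0.258) and no call in the interaction of strain and cell type. That B6 call ended without the fourth B6 Tn library (adjusted p 0.0696), and its value was -0.08 with length and GC offsets. Wars, the tryptophanyl enzyme and a known interferon-gamma target, had log2 changes of -0.08 in B6 and 0.00 in TC and was not called. In B6 its value was 0.06 with library totals, and with length and GC offsets it was -0.23 and called (adjusted p 0.000818).

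Enzymes for one amino acid did not always share a direction between compartments. Of 17 cytosolic and mitochondrial pairs, 10 had both genes lower in Tfh in B6 and 8 in TC, counts that follow in part from the many lower members. Eprs was paired with both Ears2 and Pars2, and Fars2 with both Farsa and Farsb. The alanyl pair was the farthest apart in both strains, with Aars above Aars2 by 0.92 in B6 and 1.03 in TC on the log2 scale. Valyl was split in both strains, with Vars higher and Vars2 lower (-0.14 in B6 and -0.24 in TC). In B6 the Vars2 ranges overlapped, and its call ended without B6 Tfh 1 or 3 and with library totals, where its value was -0.0085 (adjusted p 0.881). Phenylalanyl was split the other way: Farsa and Farsb, the 2 subunits of the cytosolic enzyme, were lower (-0.29 and -0.23 in B6, -0.36 and -0.36 in TC) where Fars2 was higher.

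The multisynthetase complex holds 8 of these enzymes on a scaffold of 3 proteins. In both strains 7 of the 8 enzyme genes were lower in Tfh (Eprs, Iars, Kars, Lars, Mars, Qars and Rars) and Dars was higher. Of all genes tested, 33.4% were lower in B6 and 32.4% in TC. Of all 20 cytosolic members, 16 were lower in B6 and 15 in TC, so the count adds little about the complex itself. Eprs, the joint glutamyl and prolyl enzyme, was 123.6, 124.4, 122.4 and 123.1 CPM in B6 Tfh and 174.1, 170.2, 163.4 and 169.8 in B6 Tn, and 134.7, 132.2 and 137.9 against 161.0, 161.5 and 169.1 in TC. Its cell types did not overlap in either strain, and the log2 changes were -0.46 ± 0.038 and -0.28 ± 0.044. Kars changed by -0.25 and -0.24, and Gars, the glycyl enzyme outside the complex, by -0.41 and -0.29. All 3 scaffold genes were lower in both strains: Aimp2 by -0.93 and -1.01, Eef1e1 by -0.70 and -0.62, and Aimp1 by -0.57 and -0.38.

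The genes around the synthetases in translation gave a mixed picture. All 8 cytosolic elongation factors were lower in Tfh in both strains, with a median of -1.02 in B6 and -0.85 in TC, and Eef1b2 at -1.31 and -1.27. The share of counts on ribosomal protein genes was 4.08% in Tfh and 8.82% in Tn of B6 mice, and 2.93% and 6.38% in TC. Of 23 genes for tRNA transcription by RNA polymerase III, 15 were lower and 2 higher in each strain, among them Polr3b, which encodes its second largest subunit (-0.91 and -0.59), and Gtf3c5 of transcription factor IIIC (0.40 and 0.23). Of the 10 mitochondrial translation factors tested, 3 were higher and 3 lower in B6 and 3 and 2 in TC, near the shares of all genes in B6 (37.1% and 33.4%). Of 27 tested genes of the integrated stress response and ATF4 targets, 10 were higher and 10 lower in B6 and 10 and 11 in TC. These counts are near the shares of all genes (37.1% and 33.4% in B6, 33.8% and 32.4% in TC) and say little about the list. Psat1 of serine synthesis was higher (0.95 and 1.25), and Slc7a5, a carrier of large neutral amino acids (-1.29 and -1.35), Trib3, a pseudokinase (-2.22 and -2.65), and Shmt2, a mitochondrial serine enzyme (-0.59 and -0.61), were lower. Tarsl2, another threonyl enzyme and outside the 36, was lower as well, by -0.86 and -0.94.

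Between strains the compartments parted. In Tfh, 12 of 20 cytosolic members were lower in TC than in B6 and 3 higher, while 7 of 16 mitochondrial members were higher and 3 lower (edgeR, adjusted p below 0.05), where 25.9% of all genes were lower and 24.7% higher. In Tn, 13 cytosolic members were lower and 3 higher, and 8 mitochondrial ones higher and 2 lower, against 26.1% and 25.8% of all genes. The ranges of the strains were apart for 15 lower and 9 higher members in Tfh (25.9% and 24.3% of all genes) and for 15 and 12 in Tn (28.1% and 27.4%). The median log2 change was -0.16 in Tfh and -0.22 in Tn for the cytosolic members, and 0.10 and 0.15 for the mitochondrial ones, beside -0.02 and -0.01 over all genes. These medians kept their sign under each scaling tried. The changes were small, and 10 of the 25 calls in Tfh and 4 of the 26 in Tn fell short of the threshold in at least 1 alternative. Comparisons of strain and of cell type draw on the same 14 libraries, so their values are set side by side and not tested against each other.

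**Figure D3:**
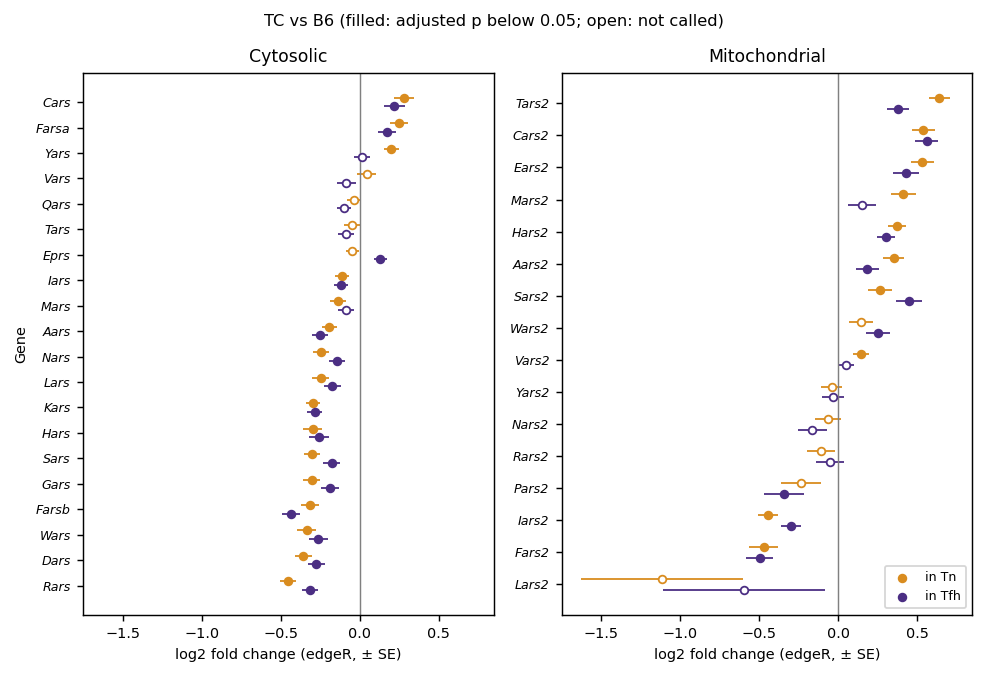
log2 fold change of TC against B6, with its standard error, in Tn (orange) and Tfh (purple), filled where the adjusted p was below 0.05. Cytosolic members (left) lie mostly left of 0, down to -0.45 for Rars, and the mitochondrial ones (right) spread from Fars2 at about -0.5 to Tars2 at 0.64, with Lars2 apart and imprecise.

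Rars, the arginyl enzyme, showed the lower cytosolic level in both cell types. It was 56.5, 63.1, 59.2 and 59.5 CPM in B6 Tfh and 45.8, 48.5 and 49.3 in TC Tfh, and 81.5, 78.2, 79.3 and 81.7 in B6 Tn against 60.5, 59.5 and 55.9 in TC Tn. No TC library reached a B6 library of the same cell type, and the log2 changes were -0.32 ± 0.051 in Tfh and -0.45 ± 0.050 in Tn (edgeR adjusted p 8.65e-05 and 1.50e-06). Farsb was 49.1, 59.6, 54.4 and 56.0 CPM in B6 Tfh and 40.6, 41.0 and 40.0 in TC Tfh, a change of -0.44, and changed by -0.31 in Tn. Kars changed by -0.29 in both, Dars by -0.28 in Tfh and -0.36 in Tn, Wars by -0.26 and -0.34, and Gars by -0.19 and -0.30, each without overlap between the strains. Against these, Cars was higher in TC by 0.22 in Tfh and 0.28 in Tn, and Farsa by 0.17 and 0.25, although its partner subunit Farsb was lower. The Farsa call in Tfh ended without the first TC Tfh library, and those of Farsa and Cars in Tfh both ended when the filter on low counts was dropped (adjusted p 0.0947 at most).

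Among the mitochondrial members higher in TC, Cars2 had the largest log2 change in Tfh and Tars2 in Tn. Tars2 was 76.4, 86.3, 82.6 and 91.2 CPM in B6 Tfh against 113.2, 105.9 and 108.8 in TC Tfh, and 86.4, 93.7, 98.2 and 108.1 in B6 Tn against 147.3, 153.9 and 150.7 in TC Tn. The strains were apart in both cell types, with log2 changes of 0.38 ± 0.068 in Tfh and 0.64 ± 0.067 in Tn (edgeR adjusted p 0.000224 and 8.00e-07). Cars2, the cysteinyl enzyme, was 22.5, 25.4, 25.0 and 26.7 CPM in B6 Tfh against 34.6, 39.4 and 36.5 in TC Tfh, and 27.9, 28.8, 31.8 and 32.7 in B6 Tn against 44.0, 45.8 and 42.3 in TC Tn. Its changes were 0.56 ± 0.073 and 0.54 ± 0.071, and all TC Tfh libraries stood above even the B6 Tn libraries.

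Ears2 was higher in TC by 0.43 in Tfh and 0.53 in Tn, Hars2 (histidyl) by 0.30 and 0.37, and Sars2 by 0.45 and 0.26. Mars2 was higher in Tn, at 0.41 (adjusted p 0.000338), with 0.15 in Tfh (adjusted p 0.169) and an interaction adjusted p of 0.328. With length and GC offsets these became 0.18 (adjusted p 0.0647) and -0.12. Aars2 was higher by 0.35 in Tn and by 0.19 in Tfh, where its adjusted p of 0.0467 rose above 0.05 in 15 alternatives.

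**Figure D4:**
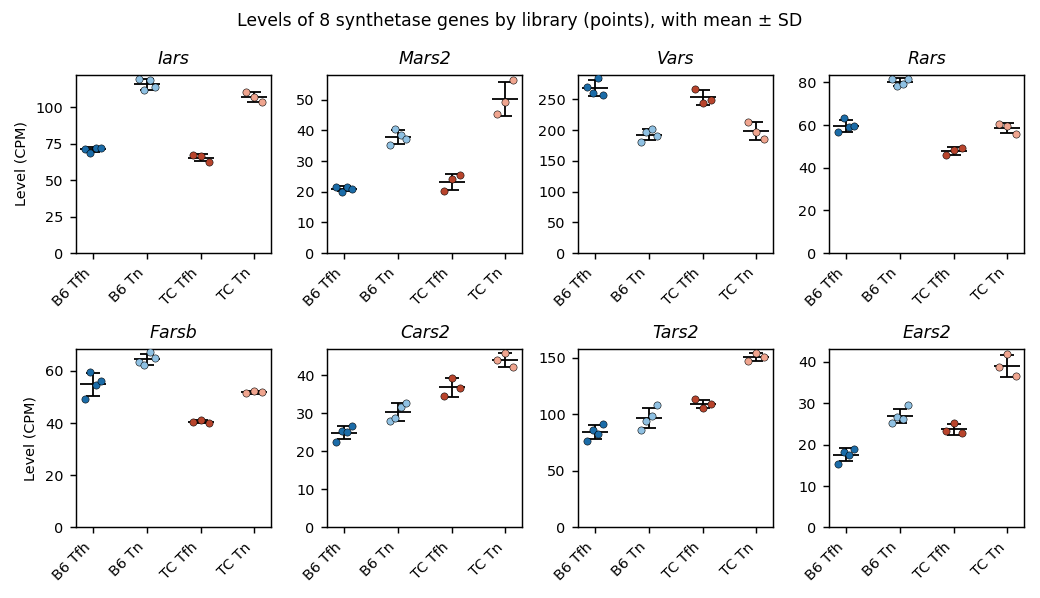
Level in CPM of 8 members in each library (points), with the mean and SD of each group, on axes from 0. Iars and Mars2 separate by cell type and Vars does so in the opposite sense, Rars and Farsb are lower in TC, and Cars2, Tars2 and Ears2 are higher in TC in both cell types.

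Other mitochondrial members were lower in TC. Fars2 was 19.80, 18.03, 19.60 and 17.63 CPM in B6 Tfh and 12.8, 12.7 and 14.3 in TC Tfh. In Tn it was 15.5, 15.3, 15.9 and 12.7 CPM in B6 and 11.0, 10.2 and 10.9 in TC, apart by strain in both cell types, with changes of -0.50 and -0.47. Iars2 (isoleucyl) changed by -0.30 in Tfh and -0.45 in Tn. Nars2, Rars2 and Yars2 were called in neither cell type, with log2 changes from -0.16 to -0.03. The counts of Iars2 and Fars2 are uncertain, since exons of Rab3gap2 overlap those of Iars2 on the opposite strand over 2034 bases, and exons of Nrn1 overlap those of Fars2 over 501 bases. The same holds for Aars, which shares 1326 exonic bases with Exosc6 on the same strand, Vars2 with antisense Gm20483 (465 bases) and Cars2 with Naxd on the opposite strand (422 bases).

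By amino acid, 4 of 17 pairs had the cytosolic gene lower and the mitochondrial gene higher in TC in each cell type. Cytosolic members were mostly lower and mitochondrial ones more often higher, so pairs of unlinked genes would be split this way too. The count adds little to those of the compartments. The opposite split was found for 2 pairs in Tfh (Eprs with Pars2 and Farsa with Fars2) and 1 in Tn (Farsa with Fars2). In Tfh, Pars2 was at -0.34 and its strains overlapped, at 10.7 to 13.3 CPM in B6 and 8.15 to 11.5 in TC. The calls of Eprs and Farsa in Tfh each ended in 2 alternatives. Alanyl, histidyl and seryl had the cytosolic gene lower and the mitochondrial one higher in both cell types, with tryptophanyl added in Tfh and methionyl in Tn. Of these, the Wars2 call in Tfh ended without the fourth TC Tfh library (adjusted p up to 0.0815), and the Mars call in Tn, at -0.14, without B6 Tn 3, TC Tn 2 or TC Tn 4 (adjusted p up to 0.0883), and that of Mars2 in Tn with length and GC offsets. The Aars2 call in Tfh, on which the alanyl split there rests, ended in 15 of 23 alternatives (adjusted p up to 0.227). In Tfh, histidyl stood at -0.26 for Hars and 0.30 for Hars2, neighbouring genes in opposite orientation whose exons overlap by 195 bases. In Tn the same genes stood at -0.30 and 0.37. The cysteinyl pair was higher on both sides, and Iars and Iars2 were both lower in both cell types. The call of Iars, at -0.12 and -0.11, ended in 10 alternatives in Tfh and 9 in Tn.

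In the multisynthetase complex, 5 of 8 enzyme genes were lower and 1 higher (Eprs, 0.13) in TC Tfh, and 6 of 8 lower in TC Tn, where Eprs was at -0.05 (adjusted p 0.348). The Eprs call in Tfh ended without the filter on low counts and with length and GC offsets (adjusted p up to 0.169). Of the scaffold, Aimp1 was lower by -0.36 in Tfh and -0.56 in Tn, and Aimp2 by -0.38 and -0.29, while Eef1e1 was not called. Among the elongation factors 7 of 8 were lower in TC Tfh and 8 of 8 in TC Tn, with Eef1g at -0.51 in both. Of the 23 RNA polymerase III genes 7 were higher and 7 lower in Tfh and 9 and 7 in Tn, near the shares of all genes in Tfh (24.7% and 25.9%). Of the 27 stress response genes tested 4 were higher and 13 lower in Tfh, and 5 and 11 in Tn. Of all genes, 24.7% were higher and 25.9% lower in Tfh, and 25.8% and 26.1% in Tn. The called genes of this list were thus mostly lower in TC, and those named next are a part of them. Atf4 itself was higher in TC (0.47 and 0.56), as were Eif2ak4, the kinase that senses uncharged tRNA (0.45 and 0.56), and Ppp1r15a, a phosphatase subunit (2.11 and 2.55), while the glutamine carrier Slc1a5 was lower (-1.25 and -1.48).

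The Sle intervals of TC lie on chromosomes 1, 4 and 7, which carry 12 members, 5 cytosolic and 7 mitochondrial. Dars, Eprs, Farsb, Iars2 and Mars2 lie on chromosome 1, Yars, Pars2 and Rars2 on 4, and Cars, Ears2, Nars2 and Sars2 on 7. Whether a given gene falls inside an interval was not determined. On these 3 chromosomes 2 cytosolic members were lower and 2 higher in each cell type, and of the mitochondrial ones 2 were higher and 2 lower in Tfh and 3 and 1 in Tn. On the other chromosomes, of 15 cytosolic members 10 were lower and 1 higher in Tfh and 11 and 1 in Tn, and of 9 mitochondrial members 5 were higher and 1 lower in both. Of all genes tested, 25.9% were lower and 24.7% higher in Tfh, and 26.1% and 25.8% in Tn. The shares of all genes were not taken by chromosome, so these few members do not set the Sle chromosomes apart from the others. Reads of TC genes whose sequence differs from the B6 reference may be counted differently, and this was not tested.

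The interaction of strain and cell type compares the Tfh to Tn ratios of the strains. It was called for 0 of 36 members by edgeR's quasi-likelihood test, where 2.1% of all genes tested were called, so that the count says little about the members. At an unadjusted p below 0.05 there were 4 members: Eprs (0.18, adjusted p 0.141), Tars2 (-0.26, adjusted p 0.197), Yars (-0.19, adjusted p 0.205) and Mars2 (-0.26, adjusted p 0.328). DESeq2 called 1, Eprs at an adjusted p of 0.0236, voom with a random mouse effect called 0, and edgeR with mouse as a fixed block called 1, Tars2 at -0.26 with an adjusted p of 0.0252.

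The summed levels put both contrasts together. The 20 cytosolic members summed to 1878 ± 38.0 CPM in Tfh and 2172 ± 29.8 in Tn of B6 mice (SD, n = 4), and to 1707 ± 33.2 in Tfh and 1955 ± 51.0 in Tn of TC mice (SD, n = 3). The mitochondrial members other than Lars2 summed to 438 ± 12.8 and 548 ± 2.41 CPM in B6, and to 480 ± 8.27 and 636 ± 10.9 in TC. The ratio of the cytosolic to the mitochondrial sum ran from 4.13 to 4.37 in Tfh and 3.90 to 4.02 in Tn for B6, and from 3.46 to 3.68 in Tfh and 2.98 to 3.23 in Tn for TC, and no group overlapped another. With Tars2 also left out, the mean ratio was 5.30 and 4.82 for Tfh and Tn of B6 and 4.61 and 4.03 for those of TC, and B6 Tn (4.77 to 4.87) and TC Tfh (4.45 to 4.84) then overlapped. With Lars2 counted in, the mitochondrial sum was lower in TC Tn (966 CPM) than in B6 Tn (1261 CPM). The ratio was then 2.19 to 3.06 in Tfh and 1.29 to 2.57 in Tn of B6, and 2.41 to 2.63 in Tfh and 1.72 to 2.40 in Tn of TC, with the strains overlapping in both cell types and the TC Tn mean (2.06) above that of B6 Tn (1.85).

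Lars2, the mitochondrial leucyl enzyme, stood apart from the other 35. In B6 it was 412.0, 347.3, 301.3 and 159.0 CPM in Tfh and 533.2, 1134, 304.8 and 883.3 in Tn. In TC it was 250.9, 199.2 and 156.0 CPM in Tfh and 352.0, 482.5 and 155.8 in Tn. Each group overlapped the groups it was compared with, and the highest library was 7.28 times the lowest. Its change of -1.23 ± 0.469 in B6 Tfh against Tn passed the test at an adjusted p of 0.0368, and that call ended in 10 alternatives, with an adjusted p of up to 0.113. These were the removal of any of B6 Tfh 2, 3 or 4, B6 Tn 2 or 4, or TC Tfh 2, the fit with mouse as a fixed block, library totals, no filter, and only the groups compared. Its change in TC was -0.71 (adjusted p 0.275), and TC against B6 it was -0.59 in Tfh and -1.11 in Tn (adjusted p 0.360 and 0.0957).

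Because Lars2 made up between 19.5% and 67.4% of the mitochondrial sum, the sums above leave it out. The other 35 members had a median coefficient of variation within a group of 3.86% to 5.08%. The largest was 20.4%, for Pars2 in TC Tfh, where Lars2 was at 23.5%, and Lars2 reached 51.5% in B6 Tn. The genes most like Lars2 in their deviations from group means over the 14 libraries were Mir6236 (Pearson r 0.996), Gm15564 (0.995) and Gm23935 (0.988), followed by Ms4a4d at 0.907. They were ranked among all genes above a minimum count summed over the libraries, a set other than the genes tested. These r values describe 14 libraries that share their depth and preparation, and the 3 loci were chosen by them. The Lars2 count was 1.54 to 2.22 times that of Mir6236 in every library, whereas it was 0.746 to 5.37 times that of mt-Rnr2, the large mitochondrial ribosomal RNA. Mir6236 lies on chromosome 9, as does Lars2, at 110281287 to 110281409 on GRCm38, and Lars2 spans 123366927 to 123462666. No 20-base stretch of the Lars2 transcripts occurs in Mir6236 or Gm23935, and 33 occur in Gm15564. How reads were shared among these loci was not tested.

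**Figure D5:**
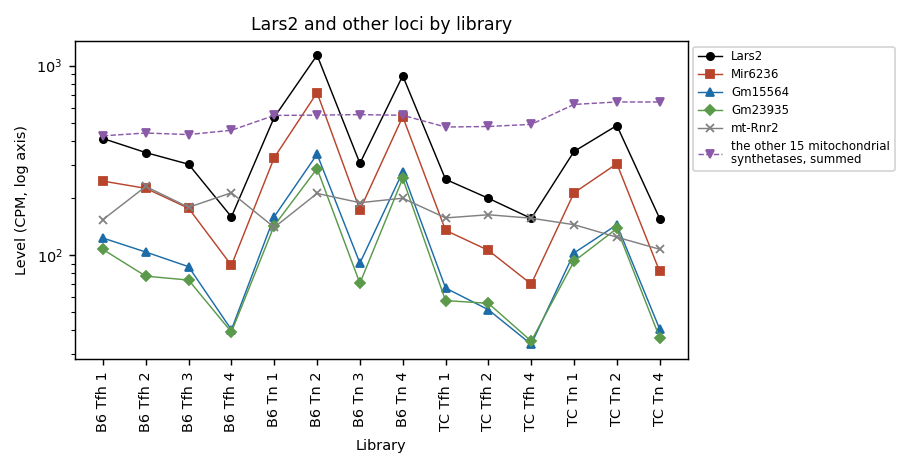
Level in CPM (log axis) of Lars2, Mir6236, Gm15564, Gm23935 and mt-Rnr2, and of the 15 other mitochondrial synthetases summed, in each library. Lars2 and the first 3 loci rise and fall together, from a Lars2 low of 156 to a high of 1134 CPM, while the summed synthetases stay level within each group.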

How the data were processed

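The deposited table holds raw read counts per gene symbol, 1 column per library. The submitters' processing notes name STAR 2.7, DESeq2 and mm10. How reads were counted, on which strand and with which annotation, is not given in the sources used here, so counts of overlapping, antisense and similar genes are uncertain.

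Genes passing filterByExpr (count minimum 10, 13427 genes) were TMM-scaled. The test was edgeR's robust quasi-likelihood (version 4.0.16, R 4.3.3) on 4 group means without a block, and calls were made at 0.05 after Benjamini-Hochberg adjustment over all genes tested. CPM values use TMM-scaled library sizes, and 3 counts are 0.150 to 0.191 CPM, which covers counting error only. The fit was tested on simulated data. Alternatives were DESeq2 1.42.0, limma 3.58.1 voom, other scalings and filters, only the groups compared, mouse as a block and each library left out. Library totals, length and GC offsets and sums without Lars2 and Tars2 were added after seeing the data.

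Replicate numbers mark the mouse, as both cell types of a spleen were sorted, per the labels' protocols. Deviations of same-numbered libraries had correlations of 0.299, 0.114, 0.0395 and 0.203 (B6 mice) and 0.209, 0.207 and 0.257 (TC mice). Libraries of a group differed by more than sampling noise, with a chi-square of 4.82 to 19.3 times its degrees of freedom.

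Members, lists, tests and named genes were chosen with earlier results of these data known. Per comparison, up to 4 called members per direction and compartment with the smallest adjusted p could be named, with a fixed set (Eprs, Gars, Kars, Wars, Mars, Lars2, Aimp1, Aimp2 and Eef1e1), the extremes of level, the pairs farthest apart and up to 3 genes of each other list. Other members were named after their values were seen. Positions and lengths came from GENCODE M21 (GRCm38) and start regions from RefSeq. Results for 1 gene are not reported here.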

Additional observations from a re-analysis of the deposited data

Results flagged for a closer look

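In groups of 4 libraries, 2 member levels had 1 library far from the other 3. Chance marks about 1 group in 20 in this way, and 36 members were looked at in 2 groups of 4. Dars in B6 Tn was 136.668 CPM in the second library against 125.793, 126.583 and 126.658 in the others, and all 4 stayed below the B6 Tfh libraries. Sars2 in B6 Tn was 22.358 CPM in the third library against 19.65, 19.88 and 19.954, and all 4 stayed above the B6 Tfh libraries.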

How the results depend on the processing

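The count of called members stayed within 1.5 times the value reported under each alternative for the 4 pairwise comparisons. With each library left out in turn it ran from 31 to 33 for Tfh against Tn in B6, 28 to 31 in TC, 20 to 25 for TC against B6 in Tfh and 23 to 26 in Tn, and was 0 for the interaction. With mouse as a fixed block it was 32 in B6, 31 in TC and 1 for the interaction, and with mouse as a random effect in voom 33, 30, 24, 26 and 0. DESeq2 gave 1 for the interaction. Over all genes, the interaction was called for 282 by edgeR, 522 by DESeq2, 712 with the fixed block and 580 by voom. Among members called in the fit reported or in the alternative, another sign was found for Qars in B6 Tfh against Tn (0.0085 with library totals). With length and GC offsets this held for Aars in B6 Tfh against Tn (-0.076) and, in TC against B6 Tn, Vars (-0.16) and Vars2 (-0.046). Members called in neither fit, such as Wars in B6 with library totals, changed sign as well. The causes were not tested. Length and GC were known for 94.99% of genes tested. Calls kept their side of the threshold, and called members their sign, in every alternative for 24 of 36 members in B6, 28 in TC, 23 between strains in Tfh and 30 in Tn. Depth did not limit member detection, but with 3 TC mice changes near 0.1 on the log2 scale sat at the threshold.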
